A study of Oryza sativa with 2 samples.

Results

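Rice takes up potassium and sodium at the root surface through a small set of membrane proteins, and 4 of their genes, HAK1 (Os04g0401700), HAK5 (Os01g0930400), AKT1 (Os01g0648000) and HKT2;1 (Os06g0701700), were followed probe by probe in root hair RNA. They were taken by locus identifier, as every spot that was not a control and whose systematic name began with that identifier. The rule gave 15 spots, each a different probe, of 43144 spots that were not controls, and 4 of 23325 loci on the array. HAK1 had 7 probes, HAK5 had 1, AKT1 had 2 and HKT2;1 had 5. The identifiers place HAK1 on chromosome 4, HAK5 and AKT1 on chromosome 1 and HKT2;1 on chromosome 6.

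HAK1 and HAK5 belong to the HAK/KUP family, whose high-affinity members bring potassium into root cells against its gradient. AKT1 is an inward-rectifying potassium channel of the Shaker type, and in rice it is switched on by the calcium sensor CBL1 acting with the protein kinase CIPK23. HKT2;1 carries sodium into roots of rice that is short of potassium. Root hairs, outgrowths of the epidermis, enlarge the surface over which such uptake takes place.

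The series has 1 group, titled "07g39940 over", with 2 samples numbered in their titles, called sample 2 and sample 1. Both samples are total RNA of root hairs of the cultivar Don-gin at the age label 3DAG, from seeds grown on MSO medium for 3 days, and 100 ng of RNA was labelled with Cy3 for each one-colour array. The hairs were rubbed off frozen seminal roots. The labels give no control group, do not say what "over" stands for and do not say whether the replicates are separate lines, plant batches or preparations.

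Sample 2 had a signal at the 75th percentile of 2772, against 2725 in sample 1. Of its spots, 85.0% were well above background, against 83.2% in sample 1. Over 33794 probes well above background on both arrays, the log2 difference between the samples had an SD of 0.43. Both arrays lay on 1 slide and were read in 1 scan. The 4 root hair growth loci used as markers were all well above background in both samples, as were 84.0% of all loci. Their summed signals were 241621 in sample 2 and 257657 in sample 1. Of 6 stele and endodermis markers, 2 were above background in both samples, beside the same 84.0%, and Os11g0124300, Os12g0122000 and Os01g0307500 were so in neither. The last of these is HKT1;5, which is also on the list of transport loci below.

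All 4 uptake genes were detected in both samples, and HAK1 and AKT1 were nearly level between them while HKT2;1 and HAK5 were lower in sample 2. HAK1 was 1.08-fold higher in sample 2, AKT1 1.03-fold lower, HKT2;1 1.72-fold lower and HAK5 3.04-fold lower. The first 3 of these rest on 5, 2 and 5 probes that moved alike within each gene, and HAK5 rests on 1 dim probe. Because each sample is 1 array of the same group, the difference between them is the spread of the group and carries no test. The group has no untreated counterpart, so none of the differences can be read as an effect of the titled locus.

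The software called all 15 probes well above background on both arrays. Detection is the common state of this array, since 84.0% of all loci had at least 1 probe so called in both samples. A stricter yardstick is the brightest of 24 random-sequence and artificial control probes, which reached 49.9 in sample 2 against 44.0 in sample 1. Against it, 14 of the 15 probes were brighter on both arrays, and the HAK5 probe was brighter in sample 1 only.

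**Figure D1:**
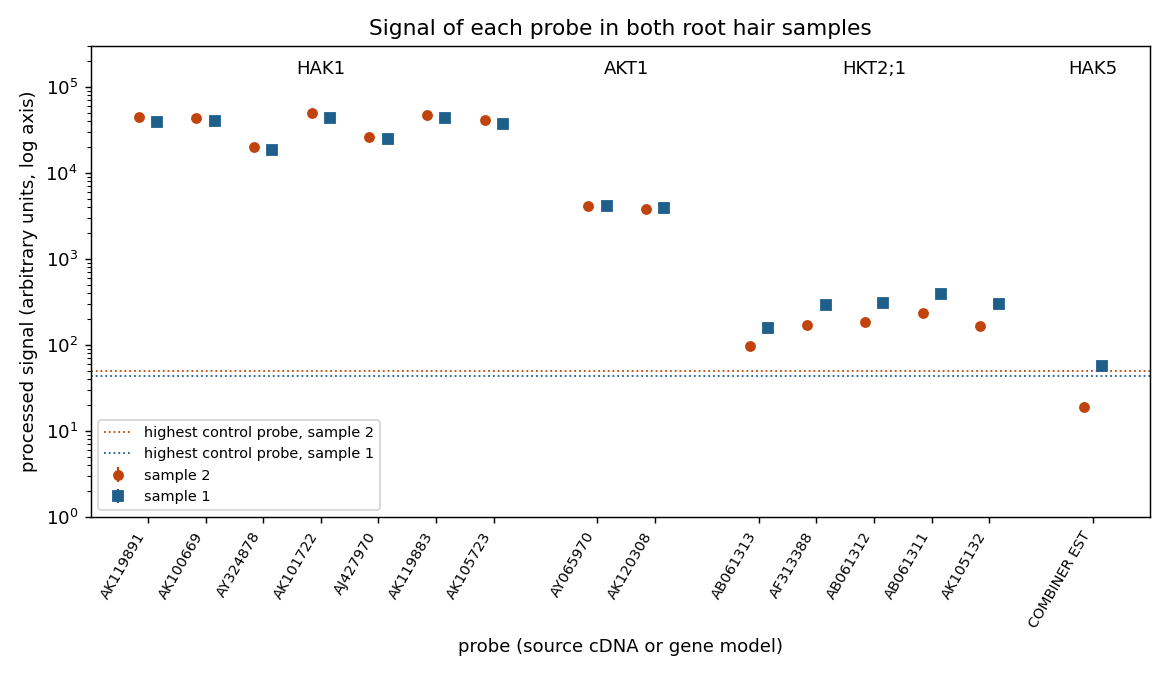
Processed signal (vertical axis, arbitrary units, log scale) of each of the 15 probes in sample 2 (circles) and sample 1 (squares), with the software's own error of each spot as bars, mostly smaller than the symbols; dotted lines mark the highest control probe of each array. The 2 symbols nearly coincide for HAK1 and AKT1, the HKT2;1 circles lie below the squares at all 5 probes, and the HAK5 circle (19.1) lies under the control line (49.9).

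HAK1, a main route of potassium entry at low external supply, gave strong signals at every probe. Its 7 probes ranged from 20010 (AY324878) to 49205 (AK101722) in sample 2 and from 18483 to 43997 at the same probes in sample 1. Probe AK119891 had 44805 in sample 2 against 38896 in sample 1, and probe AJ427970, the only one named for coding sequence alone, had 26344 against 25108. All 7 probes were higher in sample 2, by 0.04 to 0.18 on the log2 scale, but at all 7 the signals of the samples overlapped within the software's error, which was 10% of the signal. The local background of 2 probes, AK100669 and AK101722, was flagged as an outlier, so 5 probes make up the value of the gene, 0.11 (SD 0.05 between probes).

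The HAK1 probes name different transcript models, which differed little. The 3 usable probes named for the model ending in 01 averaged a difference of 0.13 and the 2 named for the model ending in 03 averaged 0.07, with ranges of 0.09 to 0.18 and 0.04 to 0.09 that meet after rounding. Probes of one gene share their target RNA and may overlap in sequence, so they repeat the measurement of a sample and are not further samples. Detected probes were divided by signal into 10 bins of equal size. The brightest bin, which holds all 7 HAK1 probes, had an SD of 0.11, the size of the HAK1 difference itself. Of its 3380 probes, 8.52% were as far apart in either direction as AK119891, the HAK1 probe with the widest gap, and 67.2% as AJ427970, the one with the narrowest. The median of the bin was -0.04, and 2.34% of its probes lay as far toward sample 2 as AK119891, against 18.4% for AJ427970.

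AKT1, the potassium channel, was level between the samples. Probe AY065970 gave 4108 in sample 2 against 4112 in sample 1, and probe AK120308 gave 3805 against 3906. The log2 differences were -0.03 and -0.06, both inside the SD of 0.13 found for probes of that brightness, and the error intervals overlapped at both probes. As a gene AKT1 differed by -0.04 (SD 0.03 between probes).

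HKT2;1, the sodium uptake gene, was lower in sample 2 at 5 of 5 probes. Probe AB061311 gave 233 ± 23.4 in sample 2 against 389 ± 39.0 in sample 1, where the error is that given by the software for the spot. Probe AB061312 had 184 ± 18.5 in sample 2 and 310 ± 31.0 in sample 1. That error covers the reading of a spot, not the spread between preparations, so it does not measure how far samples of this group vary. Probe AF313388 had 171 in sample 2 and 288 in sample 1, and probe AK105132 had 167 in sample 2 and 301 in sample 1. The lowest signals were those of AB061313, 96.7 in sample 2 and 159 in sample 1. Even these were 1.94 and 3.61 times the signal of the brightest control probe.

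The 5 HKT2;1 probes differed by -0.88 to -0.74 on the log2 scale, and the gene by -0.79 (SD 0.05 between probes). This range does not touch that of HAK1 (0.04 to 0.18) or AKT1 (-0.06 to -0.03). Such ranges are between probes read on the same arrays and are not a spread between samples. Dim probes also differ more, with an SD of 0.54 in the bin of most HKT2;1 probes and 0.11 in that of HAK1. The HKT2;1 probe named for transcript model 01 differed by -0.76, and the 4 named for model 02 averaged -0.79. The spots lie far apart on the array, in rows 114, 314, 320, 374 and 410. Within 5 rows and columns of each spot, the median difference of the other detected spots was between 0.01 and 0.08, and in 4 of the 5 neighbourhoods none of 82 to 100 neighbours was as low as the HKT2;1 probe itself. In the fifth, that of AB061311, 1 of 93 was. The neighbours were not matched for brightness, and 1.12% of all loci detected in both were 1.5-fold or more lower in sample 2. Such low counts were therefore likely around any spot, and they do not test the array position.

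Among the 19582 loci detected in both, 1.12% were 1.5-fold or more lower in sample 2, and HKT2;1 and HAK5 were the 2 of the 4 uptake genes past that fold. The 4 genes were chosen with earlier results of these data known, so this count is no result about such genes as a set. In the signal bin that holds 3 of the 5 HKT2;1 probes, 1.09% of 3380 probes lay as far toward sample 1 as the least different of the 3, and 5.24% were as far apart in either direction. The SD of that bin was 0.54. It leaned toward sample 2, with a median of 0.10 and 5th and 95th percentiles of -0.25 and 0.70. Over the 5 probes, the share of equally bright probes as far apart in either direction ran from 3.14% (AB061311) to 9.71% (AB061313).

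HAK5, a second high-affinity potassium transporter of the family, was the 1 gene of the 4 past 2-fold. Its only probe is named for a gene model, COMBINER_EST, where the other probes are named for mRNA accessions. It gave 19.1 ± 2.62 in sample 2 against 57.0 ± 6.01 in sample 1, with errors of 13.75% and 10.5% of the signal. The log2 difference was -1.60. A 2-fold gap or wider was found at 2.31% of the loci detected in both, 1.83% higher and 0.485% lower in sample 2. The share of the 2-fold loci that were higher in sample 2 was 79.0%. It was 63.1% with quantile normalization, 60.6% in the authors' deposited table and 62.8% after normexp correction. With median scaling and with loess it was 72.3%, and with dim probes kept 72.2%. Probes above the highest control probe gave 82.4%, keeping outlier spots 79.1% and the median over probes 79.0%.

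Before any processing by the software, the HAK5 spot stood 28.0 units above its local background in sample 2 and 60.5 in sample 1, in median pixels. That is a log2 difference of -1.11, against -1.60 in the processed signal. The difference was -1.01 in the authors' deposited table and -0.55 after normexp correction, which is 1.46-fold. The normexp setting adds an offset of 50 to every signal, which by construction narrows log2 differences at spots as dim as this one. The values also differ in other steps of processing, and how much each step adds was not tested. HKT2;1 probes differed by -0.83 to -0.58 in background-subtracted median pixels, and AKT1 probes by -0.05 to -0.03.

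The HAK5 spot lies in row 453 and column 2, near the edge of the array. The 52 detected spots within 5 rows and columns had a median difference of -0.0020 and ranged from -0.89 to 0.69, so none was as low. These neighbours were not matched for brightness, and 0.485% of all loci detected in both were 2-fold or more lower in sample 2. Finding none was therefore likely around any spot and does not test the array position. In the signal bin that holds HAK5, 0.740% of 3379 probes lay as far toward sample 1, 4.29% were as far apart in either direction, and the SD was 0.64. This bin leaned toward sample 2, with a median of 0.17 and 5th and 95th percentiles of -0.38 and 1.29. The share in either direction therefore counts mostly probes that were higher in sample 2. With 1 probe there is no second measurement of this gene on the array.

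**Figure D2:**
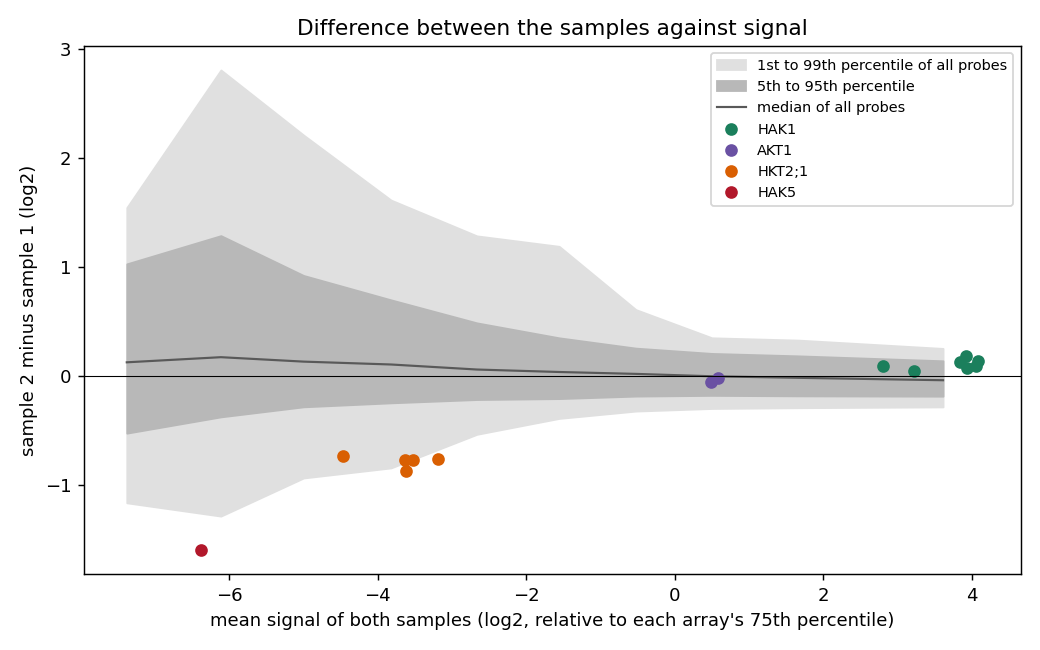
Log2 difference, sample 2 minus sample 1 (vertical axis), against the mean signal of both samples (horizontal axis, log2 relative to each array's 75th percentile). Bands show all 33794 detected probes in 10 signal bins and points show the 15 probes; the band narrows from an SD of 0.64 in the bin of HAK5 to 0.11 in the brightest. HAK5 (-1.60) and the HKT2;1 probes AB061311 (-0.76) and AK105132 (-0.88) lie under the 1st percentile of their bins, all 5 HKT2;1 points lie under the 5th, and AKT1 lies inside the band. The HAK1 probes AK119891 (0.180) and, narrowly, AK101722 (0.137) lie over the 95th percentile of their bin (0.136).

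Genes that mark other tissues also differed between the samples, in both directions. The 6 seed storage loci had summed signals of 121 in sample 2 and 8238 in sample 1. All 6 were lower in sample 2, where 4 were above background, against 6 in sample 1. All 10 photosynthesis loci were higher in sample 2, with summed signals of 5491 and 3332 and a median difference of 2.02. The 6 stele and endodermis markers had summed signals of 217 in sample 2 and 279 in sample 1, but 2 of them were above background in both samples and the list held differences of either sign, up to 1.40. HKT2;1, HAK5 and the seed loci were lower in sample 2, and the part of seed or other tissue in the difference of the uptake genes was not tested. In bulk RNA, fewer cells of a type and less RNA per cell cannot be told apart.

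Other potassium and sodium transport loci that were detected in both samples lay close together between them. A list of 46 further loci had 38 with a usable probe, of which 26 (68.4%) were detected in both samples, beside 84.0% of all loci. None of the 26 was 1.5-fold apart in either direction. Of all loci detected in both, 1.12% were 1.5-fold or more lower in sample 2, so few or none of 26 were likely to be that low. The share 1.5-fold or more higher was not counted. At 2-fold, 1.83% of all loci were higher in sample 2 and 0.485% lower. Of the 26, 20 had a probe above the brightest control on both arrays, where probes differ less than dim ones such as HAK5. The median difference of the 26 was -0.05, beside 0.03 for all loci, and 16 were lower and 10 higher in sample 2. The lowest was -0.32 and the highest 0.50.

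Other HAK/KUP transporters were detected at 12 of 14 loci with a probe (85.7%), near the 84.0% of all loci. HAK10 gave 14601 in sample 2 against 14552 in sample 1, a difference of -0.02 (SD 0.0046 between 2 probes). The 2 undetected members were HAK17 and HAK20, named here after their values were seen. Probes disagreed at HAK4, also named after its values were seen, where 2 of 5 probes were well above background, with a mean signal of 4132 in sample 2 and 4539 in sample 1.

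Of the other Shaker-type channel loci, 2 of 7 (28.6%) were detected in both samples, beside 84.0% of all loci, and 1 in sample 2 only. Os06g0250600 gave 1882 in sample 2 against 1638 in sample 1, a difference of 0.18. Os05g0428700, named after its values were seen, was above background in sample 2 (21.2) and not in sample 1 (6.19), and both signals lie under the brightest control probe. Among the Shaker-type loci measured, AKT1 and Os06g0250600 were those above that control on both arrays.

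HKT2;1 stood alone in its family. Of the other 6 HKT loci, which carry sodium or potassium, 1 (16.7%) was detected in both samples, beside 84.0% of all loci. This was HKT1;1, at 21.8 in sample 2 and 26.7 in sample 1, under the brightest control probe. HKT1;3, HKT1;4, HKT1;5, HKT2;3 and HKT2;4 were above background in neither sample, a list given after the values were seen. HKT2;4, a close relative with the neighbouring identifier, had 4.48 in sample 2 and 4.32 in sample 1. Whether the probes tell these close copies apart was not tested.

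Sodium/proton exchangers and vacuolar potassium channels were detected at all 6 loci with a probe, beside 84.0% of all loci. Os05g0148600 gave 11494 in sample 2 against 11410 in sample 1, a difference of -0.01 (SD 0.01 between 3 probes). The regulators of uptake were detected at 5 of 5 loci, beside the same 84.0%, with 3 lower and 2 higher in sample 2. CIPK23, the kinase that acts on AKT1, had 16684 in sample 2 and 17450 in sample 1 (-0.09). Its partner CBL1, added after the values were seen, had 1866 in sample 2 and 1966 in sample 1 (-0.10).

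**Figure D3:**
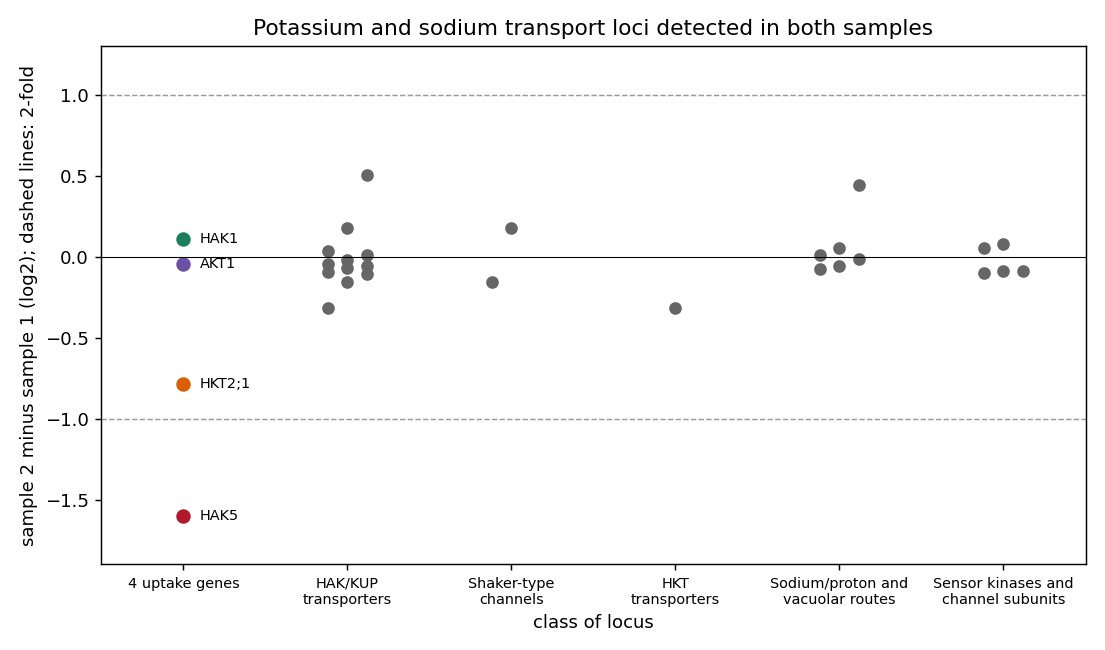
Log2 difference, sample 2 minus sample 1 (vertical axis), of the 4 uptake genes (named) and of the 26 other transport loci detected in both samples, by class (horizontal axis); each point is a locus and dashed lines mark 2-fold. All 26 lie between -0.32 and 0.50, while HKT2;1 lies at -0.79 and HAK5 at -1.60. The 4 genes were chosen with earlier results of these data known, so this contrast is no result about them. Loci not detected in both samples, such as Os05g0428700 (21.2 in sample 2, 6.19 in sample 1), are not drawn.

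The pattern of the 4 genes was set against the choice of processing. HAK1 was higher in sample 2 under all 14 alternatives run for it (0.01 to 0.15) and AKT1 lower under all 11 (-0.14 to -0.03). HKT2;1 was lower in sample 2 under all 14 (-0.91 to -0.61), and leaving out any 1 probe left it between -0.80 and -0.76. HAK5 was lower under all 8 that gave a value, and the size spread from -1.82 with quantile normalization to -0.55 with normexp correction. Not every alternative could change a value. Keeping dim probes or outlier spots left AKT1 at -0.04, HKT2;1 at -0.79 and HAK5 at -1.60, since the probes in use were the same. Leaving out 1 probe could not turn a sign, since the probes of each gene shared it.

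**Figure D4:**
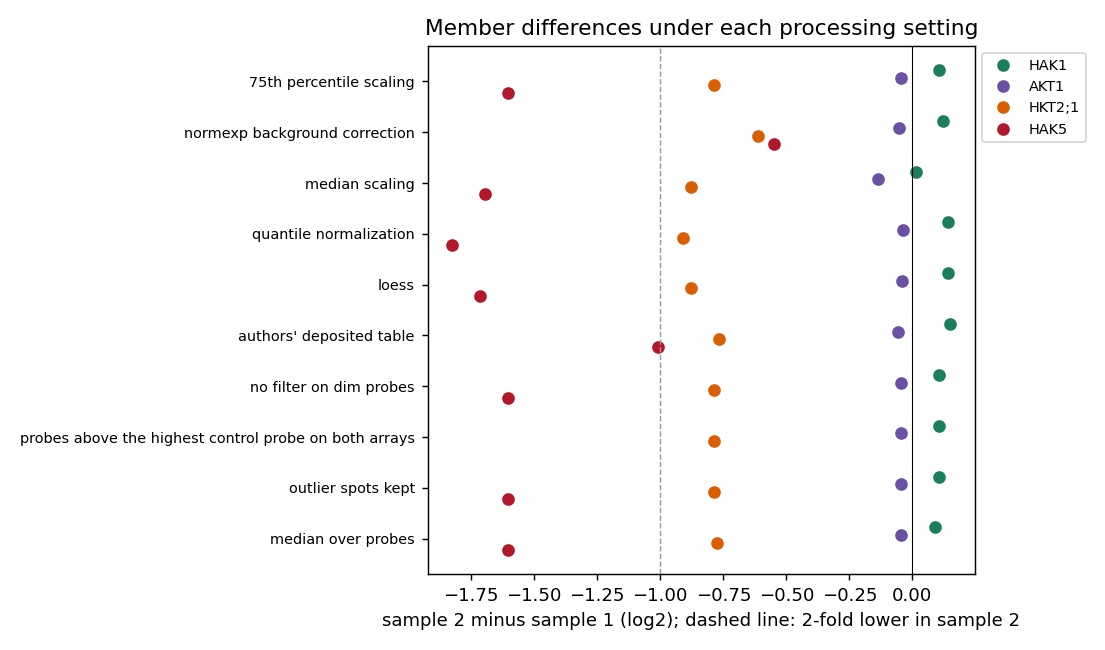
Log2 difference, sample 2 minus sample 1 (horizontal axis), of each gene under 10 processing settings (rows); the dashed line marks 2-fold lower in sample 2. HKT2;1 stays between -0.91 and -0.61, HAK1 and AKT1 stay near 0, and HAK5 spreads from -1.82 to -0.55, with no point where dim probes were left out.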

How the data were processed

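Intensity values came from 2 scanner files deposited by the authors, made with Agilent Feature Extraction (the file headers give version 11.5.1.1, and the submitters' processing notes 9.1). Per the file headers the processed signal was background-subtracted and detrended within each array, and the grid refers to build IRGSP5. The authors also deposited log2 values, whose making the sources used here do not give. Their medians were 8.19 in both columns.

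Of 45151 spots, 1417 scanner controls, 590 named control spots and 1436 spots with an outlier flag of the spot or its background were left out. Log2 processed signals were set relative to each array's 75th percentile, spots of a probe were averaged, and probes of a locus well above background on both arrays were averaged. Differences are sample 2 minus sample 1, and locus signals are geometric means in arbitrary units. Depth has no meaning here, and the number of arrays limits the precision.

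The members and lists were chosen with earlier results of these data known. Names were checked by chromosome and order against RefSeq genes of assembly ASM3414082v1, and 32 of 50 passed. Other loci appear by identifier, and no coordinates are given, since the builds are not the same. Named loci are the 4 uptake genes, any listed locus 2-fold apart, and the listed locus of highest signal in each class. Loci outside this rule are marked where they appear. Alternatives used limma 3.58.1 in R 4.3.3 (normexp with offset 50 on median spot signals, as the files hold no mean signal, quantile and loess), and the remaining steps used Python 3.11.15. The steps were tested on simulated data with the same noise at every brightness, so that test does not bear on how far dim probes vary.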

Additional observations from a re-analysis of the deposited data

How the results depend on the processing

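HAK1, AKT1 and HKT2;1 kept their sign and moved by less than the SD of equally bright probes under every alternative run. Some alternatives, for these genes and for HAK5, left the probes in use unchanged and so could not move the value. HAK5 moved under 1 of 8, to -0.55 with normexp correction, whose offset of 50 narrows differences at dim spots. It gave no value where only probes above the highest control probe on both arrays were used. The count of uptake genes at least 2-fold apart was therefore 1 in the main setting and 0 under each of these 2 settings. Among the 46 further transport loci it was 0 in the main setting and 2 when dim probes were kept (38 loci in place of 26), both with more signal in sample 2. Over all loci the count was 453 in the main setting, 113 with normexp correction, 142 in the authors' deposited table, 136 with probes above the highest control probe and 1173 without the dim filter. Above the highest control probe 3 were detected. No paired analysis was possible because the series has 1 group. For HAK5, with signals close to those of control probes, the array cannot fix the size of the difference.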
